A study of Mus musculus with 11 samples.

Results

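The CXC chemokines and receptors described here are 10 genes, Cxcl1, Cxcl2, Cxcl5, Cxcl10, Cxcl12, Cxcl14, Cxcl16, Cxcr2, Cxcr4 and Cxcr6. They were taken by symbol from the 28692 genes of the feature lists, and all 10 were found. Their messenger RNA was followed through the tubular, stromal, endothelial and immune cells of 11 single-cell libraries of adult mouse kidney. The 5 control libraries, titled Ctrl, N1, N2, AN1 and AN2, came from naive mice. The 3 UIR libraries (UIR, UIR1, UIR2) came from kidneys after Unilateral Ischemia-Reperfusion, in which the left renal pedicle was clamped for 30 minutes. The 3 UUO libraries (UUO, UUO1, UUO2) came from kidneys with Unilateral Ureteral Obstruction, in which the left ureter was tied off for good. The operated animals were male C57Bl/6 mice of 10 weeks and their kidneys were taken on day 28, and the controls matched them in age, strain and sex. No group carried a transgene. The labels name the controls in 3 sets (Ctrl, N, AN) and give no such set for UIR or UUO, so a run and a model cannot be told apart. The comparisons ask in which cells of the fibrotic kidney these signals and their receptors were higher or lower than in the naive kidney, and whether the 2 models differ.

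Chemokines are small secreted proteins that steer migrating cells through G protein-coupled receptors, and the CXC family is named for the single residue between its first cysteines. Cxcl1, Cxcl2 and Cxcl5 carry a glutamate-leucine-arginine motif ahead of those cysteines and draw neutrophils through Cxcr2. Cxcl10 is induced by interferon and draws T and NK cells through Cxcr3, Cxcl12 binds Cxcr4 and retains or recruits leukocytes and progenitors, and Cxcl16 is a transmembrane chemokine whose shed form binds Cxcr6 on T cells. The receptor of Cxcl14 is less settled. In the injured kidney the family is known for drawing leukocytes to damaged tubules and to the interstitium.

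In GRCm38, the build of the files, 4 of the ligand genes lie on chromosome 5. Cxcl5 (ENSMUSG00000029371) runs from 90759360 to 90761624, Cxcl1 (ENSMUSG00000029380) from 90891241 to 90893115 and Cxcl2 (ENSMUSG00000058427) from 90903871 to 90905938, all on the plus strand, and Cxcl10 (ENSMUSG00000034855) from 92346638 to 92348889 on the minus strand. Cxcl12 (ENSMUSG00000061353) lies on chromosome 6, Cxcl16 (ENSMUSG00000018920) on chromosome 11 and Cxcl14 (ENSMUSG00000021508) on chromosome 13. Cxcr2 (ENSMUSG00000026180) and Cxcr4 (ENSMUSG00000045382) both lie on chromosome 1 and Cxcr6 (ENSMUSG00000048521) on chromosome 9. The promoters were searched because Cxcl1 and Cxcl2 rose in the same tubular class and Cxcl10 in another. RefSeq promoters of the same build were found for 8 of the 10 members, Cxcl5 and Cxcl16 being the others, and the 250 bases before the start were read on both strands.

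An NF-kB type site, spelled GGG and TTTCC with 2 bases of any kind between them, stood in the promoters of 447 of 27025 genes (1.65%) and of 2 members, with 2 matches each. An interferon response type site, spelled GAAA and GAAA with 2 bases of any kind between them, stood in 936 promoters (3.46%), those of Cxcl10 and Cxcl14 included. The short core ACGTG of a hypoxia response element stood in 4998 promoters (18.5%) and, among the members, in that of Cxcl1. Each match is printed below on the plus strand of the chromosome or, for the minus-strand genes Cxcl10 and Cxcl14, on the gene's own strand, with the matched letters in capitals. No match overlapped another. A match describes these letters alone and shows no binding.
Cxcl1, chr5:90891164-90891193, 71 bases before the start: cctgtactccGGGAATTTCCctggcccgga
Cxcl1, chr5:90891146-90891175, 89 bases before the start, match on the other strand: ccggttgcagGGAAACACCCtgtactccgg
Cxcl2, chr5:90903792-90903821, 97 bases before the start: cctgagctcaGGGAATTTCCctggtccccg
Cxcl2, chr5:90903811-90903840, 78 bases before the start: cctggtccccGGGCTTTTCCagacatcgtg
Cxcl10, chr5:92349083-92349112, 213 bases before the start: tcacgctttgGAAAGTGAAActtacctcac
Cxcl14, chr13:56296704-56296733, 172 bases before the start: gtgtccacagGAAACAGAAAagcagcaccc
Cxcl1, chr5:90891039-90891063, 196 bases before the start, match on the other strand: tccagcgaagCACGTcactccctcc

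The libraries held 91920461 to 110914244 unique molecular identifiers (UMIs) each in control, 82522753 to 117043590 in UIR and 49503312 to 60918546 in UUO. After filters 40528 cells were kept, 10252 from control, 16939 from UIR and 13337 from UUO. The share of called barcodes over the limit of 30% mitochondrial UMIs was 57.0% to 78.7% in control, 23.7% to 37.0% in UIR and 3.15% to 7.72% in UUO, so it moved with the groups. Of the kept barcodes 209 sequences occurred in more than 1 library, at most 18 for any of the 55 pairs. The kept cells comprised 18162 tubular, 14981 immune, 4252 endothelial and 1726 stromal cells, besides podocytes and 670 cells placed in none of these. Over all kept cells 4800 were left without a class or a cluster name. Classes were named from fixed markers without any member, and members were left out of the genes used for clustering. They are proximal tubule (PT), loop of Henle (LOH), distal tubule (DT), principal (CD-P) and intercalated (CD-I) collecting duct cells, failed repair tubular cells (frTEC), podocytes (Podo), endothelium (Endo), stroma, macrophages (Macro), monocytes (Mono), neutrophils (Neutro), dendritic cells (cDC1, cDC2, mDC), B cells and T/NK cells. Tubular clusters without a clear class go by their leading genes, such as Ubd/Ptgds and Ankrd1/Tnc. By markers of other compartments, 35.5% to 100% of the RNA in Ankrd1/Tnc pools was estimated to come from outside the cells. The tubular origin of Ankrd1/Tnc was not tested.

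A level below is in CPM, the UMIs of a gene per 1000000 UMIs of a class in a library, over libraries with at least 20 cells of that class. Differences are log2 values with their standard error (SE) from edgeR's quasi-likelihood test, with p-values adjusted by Benjamini-Hochberg over all genes tested in the class and called under 0.05. The control stroma, with pools in N1, N2 and AN1 alone, was of another kind than the fibrotic stroma. Ctrl and AN2 had 17 and 8 stromal cells and entered an added fit with pools of at least 5 cells, chosen after the values were seen. In N1, N2 and AN1 21, 33 and 21 cells were of the Fibro 3 type. Their 6 stromal markers, 5 of them detected, summed to 914 to 1177 CPM with Col1a1, the collagen I chain, at 0, and the sum was 11348 to 12338 CPM in UIR and 15301 to 18074 CPM in UUO. Likewise 266 of the 284 control LOH cells lay in a cluster led by Egf and Slc12a1, whereas the UIR and UUO cells lay mostly in clusters led by Slc12a1 with Umod, by Krt8 with Elf3 and by Psca with Mmp7. The 5 LOH markers summed to 19112 to 23727 CPM in control, 13059 to 13760 CPM in UIR and 7301 to 8602 CPM in UUO. The part of these shifts of cell state in the differences below was not tested. At a mitochondrial limit of 15%, 31 of the called results that could be tested kept their call and 12 did not. Those lost were the LOH calls of Cxcl1, Cxcl2 and Cxcl5 in both models and of Cxcl14 in UUO, Cxcl16 in PT cells of UIR, Cxcl10 in stroma between UUO and UIR, and over all kept cells Cxcl12 in UUO, Cxcl2 in UIR and Cxcl5 between UUO and UIR. With DESeq2 in place of edgeR 8 calls were lost, namely Cxcl10 in CD-I of UIR, Cxcl16 in failed repair cells of UUO and Cxcl2 over all kept cells of UIR, and between UUO and UIR Cxcl10 in CD-I and stroma, Cxcr4 in endothelium, and Cxcl5 and Cxcr4 over all kept cells.

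Between UIR and control, 43 pairs of a member and a class entered the test and 14 were called, 12 higher in UIR (27.9% of the pairs) and 2 lower. Over all genes in the 12 classes compared, 10 of which held the pairs, 5.57% of tests were called higher and 4.28% lower. Between UUO and control, 15 of 41 pairs were called, 14 higher (34.1%) and 1 lower, against 6.97% and 6.14% of all tests. Between UUO and UIR, 7 of 54 pairs were called, 6 higher in UUO (11.1%) and 1 lower, against 0.649% and 0.927% of all tests. Pairs that passed the filter on low counts through the group where they were high had to differ, so these counts describe the pairs tested, not all members in all classes. The median log2 difference of the tested pairs was 0.61, 0.54 and 0.15 in the 3 comparisons, and that of all genes 0.01, 0.02 and 0.00.

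**Figure D1:**
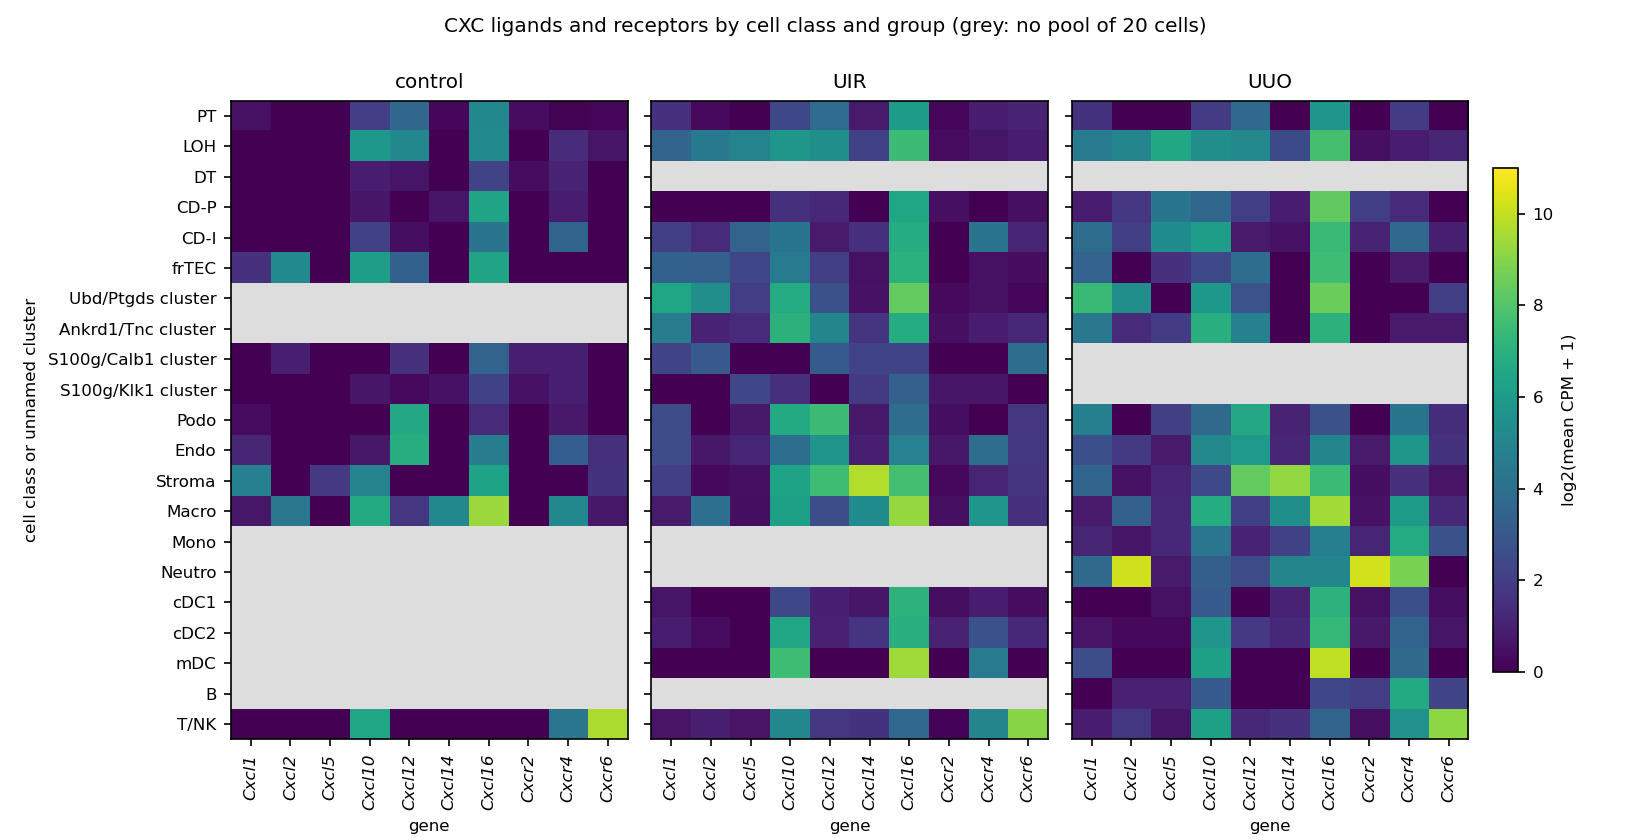
Mean level of each member (log2 of mean CPM + 1, colour) in each cell class (rows) in control, UIR and UUO, 1 panel a group. Colours are to be read down a gene's column and not between genes, and grey marks a class with no pool of at least 20 cells. Cxcr6 stood out in T/NK cells, Cxcr2 in neutrophils and Cxcl14 in UIR and UUO stroma.

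With all kept cells of a library summed, 8 of the 10 members were called higher in UIR than in control, where 33.1% of all genes were called higher and 28.3% lower. All 10 were called higher in UUO than in control, against 38.5% of all genes higher and 33.4% lower. Cxcl5, Cxcr2 and Cxcr4 were higher in UUO than in UIR, against 10.2% higher and 14% lower, and no member was lower in any of the 3 comparisons. In such sums fewer cells of a type and less RNA per cell cannot be told apart, and the cell make-up differed widely, with 976 to 1187 PT cells in a control library, 336 to 795 in UIR and 18 to 48 in UUO. Cxcl12 (log2 difference 0.37, SE 0.17, adjusted p = 0.0746) and Cxcr2 (0.62, SE 0.54, adjusted p = 0.341) were the members not called between UIR and control.

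Over all kept cells Cxcl16 stood at 39.4, 53.7, 43.5, 45.8 and 42.8 CPM in Ctrl, N1, N2, AN1 and AN2, at 152, 178 and 196 CPM in UIR, UIR1 and UIR2 and at 218, 263 and 229.9 CPM in UUO, UUO1 and UUO2. The 3 groups did not overlap, with differences of 1.58 for UIR (SE 0.12, adjusted p = 2.96e-07) and 1.93 for UUO (SE 0.12, adjusted p = 1.48e-08) after TMM scaling, which makes them smaller than the ratio of the CPM means. Cxcl14 ranged from 0.577 to 2.45 CPM in control, 24.8 to 63.7 CPM in UIR and 39.8 to 68.8 CPM in UUO (4.82, SE 0.40, and 4.89, SE 0.40). Cxcl10 ranged from 8.32 to 12.3, 38.5 to 57.7 and 36.1 to 77.5 CPM (1.85, SE 0.22, and 2.08, SE 0.22). For both ligands the injured libraries lay above all controls and the models overlapped. Cxcl5 held 1 UMI in the 5 controls together, and stood at 1.31, 10.3 and 13 CPM in UIR libraries and 19.4, 46.5 and 28.5 CPM in UUO libraries. UUO exceeded UIR by 1.85 (SE 0.53, adjusted p = 0.0241), a call lost without AN1, UUO1 or UUO2. Cxcl1 ranged from 0.216 to 1.73 CPM in control, 3.78 to 16.5 CPM in UIR and 5.39 to 12.1 CPM in UUO, and Cxcl2 from 0 to 3.17, 4.82 to 11 and 10.6 to 35.7 CPM, in the same order.

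Cxcl1, Cxcl2 and Cxcl5, the neutrophil-drawing ligands, were not seen in control LOH cells and had UMIs in the LOH pool of every injured library. Some of these levels lay within or below the range of droplets without cells, given below. Cxcl1 in LOH was at 0 in all 5 controls, at 5.1, 11.7 and 16.5 CPM in UIR, UIR1 and UIR2, and at 25.5, 31 and 8.4 CPM in UUO, UUO1 and UUO2. Injured and control libraries did not overlap, and the UUO and UIR ranges did. Against a floor of 3 UMIs over the control pools, Cxcl1 was at least 7.62-fold higher in UIR (adjusted p = 0.0157) and at least 15.8-fold higher in UUO (adjusted p = 0.00127).

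Cxcl2 in LOH was likewise at 0 in all 5 controls, at 6.89, 32.2 and 23 CPM in UIR libraries and at 41.1, 47 and 5.71 CPM in UUO libraries. The UUO2 library was the lowest of all 6 injured ones. Cxcl2 was at least 13.8-fold higher in UIR (adjusted p = 0.0251) and at least 23.6-fold higher in UUO (adjusted p = 0.0059). Cxcl5 in LOH was at 0 in the controls, at 2.3, 36.5 and 49.4 CPM in UIR, UIR1 and UIR2 and at 61.4, 114 and 116 CPM in UUO, UUO1 and UUO2. Every UUO library lay above every UIR library, with a log2 difference of 1.70 (SE 0.46) that missed the threshold (adjusted p = 0.053). With the library number as a replicate block it was 1.95 (adjusted p = 0.00497). The numbers were not taken to pair the samples, so the difference stays uncalled. Cxcl5 was at least 20.5-fold higher in UIR than in control (adjusted p = 0.0256) and at least 61.7-fold higher in UUO (adjusted p = 0.00057). The Cxcl5 UMIs behind these folds came mostly from a cluster within LOH that held no control cell, described below. At a mitochondrial limit of 15%, which left 2 control LOH pools of 20 and 26 cells, the adjusted p of these 3 ligands was between 0.253 and 0.547 in both models. The UIR calls of Cxcl2 and Cxcl5 were lost without Ctrl, N2 or AN2, and that of Cxcl1 without Ctrl. In droplets without cells, which sample free RNA, Cxcl1 was at 2.01 to 7.03 CPM in UIR and 6.57 to 16.3 CPM in UUO. Cxcl2 was at 2.75 to 5.72 and 6.15 to 20.8 CPM there and Cxcl5 at 3.13 to 4.02 and 16.9 to 25.4 CPM. The LOH levels of Cxcl1 in the UIR and UUO2 libraries lay within these ranges. Those of Cxcl5 in the UIR library and of Cxcl2 in UUO2 lay below them. The LOH calls of all 3 ligands held with that RNA subtracted.

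Within LOH these ligands were uneven. In the cluster led by Psca, Slurp1 and Mmp7, which held no control cell, 244 UIR cells gave pooled levels of 44.5 CPM for Cxcl1, 84.5 CPM for Cxcl2 and 142 CPM for Cxcl5, and 359 UUO cells gave 42.1, 64.4 and 168 CPM. That cluster, with 244 of the 2029 UIR and 359 of the 1138 UUO LOH cells, held most UMIs of these ligands. It held 804 of the 825 Cxcl5 UMIs of UIR LOH cells and 1278 of the 1333 of UUO. For Cxcl1 it held 252 of 306 and 320 of 342. Cxcl5 was among the 10 leading genes of that cluster, although no member was used to form it. Whether the cells of that cluster belong to the loop of Henle was not tested. The cluster led by Slc12a1 and Umod, the transporter and the secreted glycoprotein of the thick ascending limb, was low. It gave 0.364 and 1.34 CPM of Cxcl5 in UIR and UUO, and 2.6 and 2.18 CPM of Cxcl1. The Krt8/Elf3 cluster lay between the Psca and Umod clusters at 15.7 CPM of Cxcl5 in UIR and 84.3 CPM in UUO. Its cells were shallow, with 891581 UMIs in 810 UIR cells and 557246 UMIs in 428 UUO cells. The Psca cluster held 5669088 UMIs in 244 UIR cells and 7607584 UMIs in 359 UUO cells. The part of depth in the Krt8/Elf3 level was not tested. In the Egf/Slc12a1 cluster, with 266 control and 78 UIR cells, Cxcl5 held no UMI in either group. There Cxcl1 held 1 UMI in UIR and none in control. These levels are pooled over libraries and carry no test, and single libraries weighed on several of them. In the Psca cluster Cxcl5 was at 4.53, 144 and 271 CPM in UIR, UIR1 and UIR2, and without UIR2 the pooled levels fell to 79.5 CPM for Cxcl5 and 28.5 CPM for Cxcl1. In the Krt8/Elf3 cluster 10 of the 14 UIR UMIs of Cxcl5 came from the UIR library, without which the level was 5.95 CPM, and UIR1 held none, so that without UIR1 it was 30.8 CPM. The Cxcl5 levels of the Umod cluster rest on 7 UMIs in UIR and 8 in UUO, 4 of them from UIR1 and 7 from UUO1, and were 0.218 CPM without UIR1, 0.307 CPM without UUO1 and 2.18 CPM without the UUO library.

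In intercalated cells, which handle acid and base, Cxcl5 was at 0 in the 5 controls, at 1.54, 26.9 and 2.35 CPM in UIR libraries and at 2.74, 97.9 and 17.5 CPM in UUO libraries. One library of each model, UIR1 and UUO1, carried most of it. The UUO level was at least 40-fold higher than control (adjusted p = 0.00473), and the UIR level did not pass the test (adjusted p = 0.117). UUO and UUO2 lay near or below the 16.9 to 25.4 CPM of Cxcl5 in droplets without cells of UUO, and after subtraction of free RNA Cxcl5 was no longer tested in this class. Cxcl1 in PT cells stood at 0.521, 0.141, 0.968, 0.104 and 0.299 CPM in Ctrl, N1, N2, AN1 and AN2 and at 1.15, 1.87 and 2.97 CPM in UIR libraries. The difference was 2.23 (SE 0.57, adjusted p = 0.0185) and was lost without UIR1 or UIR2. These levels were low, Cxcl1 in droplets without cells was at 2.01 to 7.03 CPM in UIR and at most 0.725 CPM in control, and with that free RNA subtracted the adjusted p was 0.076.

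Cxcl1 moved the other way in stroma. It stood at 27.7, 37.5 and 15.2 CPM in N1, N2 and AN1, at 2.78, 1.56 and 5.54 CPM in UIR, UIR1 and UIR2 and at 20.8, 6.03 and 5.92 CPM in UUO, UUO1 and UUO2. The 3 controls, which together held 11 UMIs, lay above every UIR library. Every UUO library also lay above every UIR library, and the UUO library at 20.8 CPM passed AN1. The fall in UIR was called (log2 difference -2.85, SE 0.83, adjusted p = 0.0209) and was lost without N1 or N2. Ctrl and AN2 stroma, both at 0, left it called when added (-2.39, SE 0.82, adjusted p = 0.0454). In the Fibro 3 cluster alone the pooled Cxcl1 level was 22.2 CPM in control and 14.9 CPM in UIR, where all 4 UMIs came from the UIR library. In UUO it was 78.1 CPM, set by the UUO library at 167 CPM (44 UMIs), and without that library it was 24.9 CPM, within the 15.4 to 37.8 CPM of N1, N2 and AN1.

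Across classes Cxcl1 was highest in the Ubd/Ptgds cluster, whose 4 pools averaged 110 ± 104 CPM (SD) and ranged from 0 in UIR to 221 CPM in UIR2. That cluster is also led by Havcr1, the kidney injury marker, and lay above the next class, Ankrd1/Tnc, by 2.78 (SE 0.47, adjusted p = 2.3e-07). Cxcl2 was highest in UUO neutrophils at 1117, 2289 and 147 CPM in UUO, UUO1 and UUO2, above Ubd/Ptgds by 3.77 (SE 0.59, adjusted p = 4.1e-08). Neutrophils of control and UIR were too few for a pool, with 1 and 14 cells. Cxcl5 in LOH averaged 34.5 ± 45.7 CPM (SD, n = 11) and stood above CD-I at 13.5 CPM by 1.61 (SE 0.32, adjusted p = 1.33e-05). In macrophages Cxcl2 reached 91.5 CPM in AN2 and 34.7 CPM in UIR, and no contrast passed the test.

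**Figure D2:**
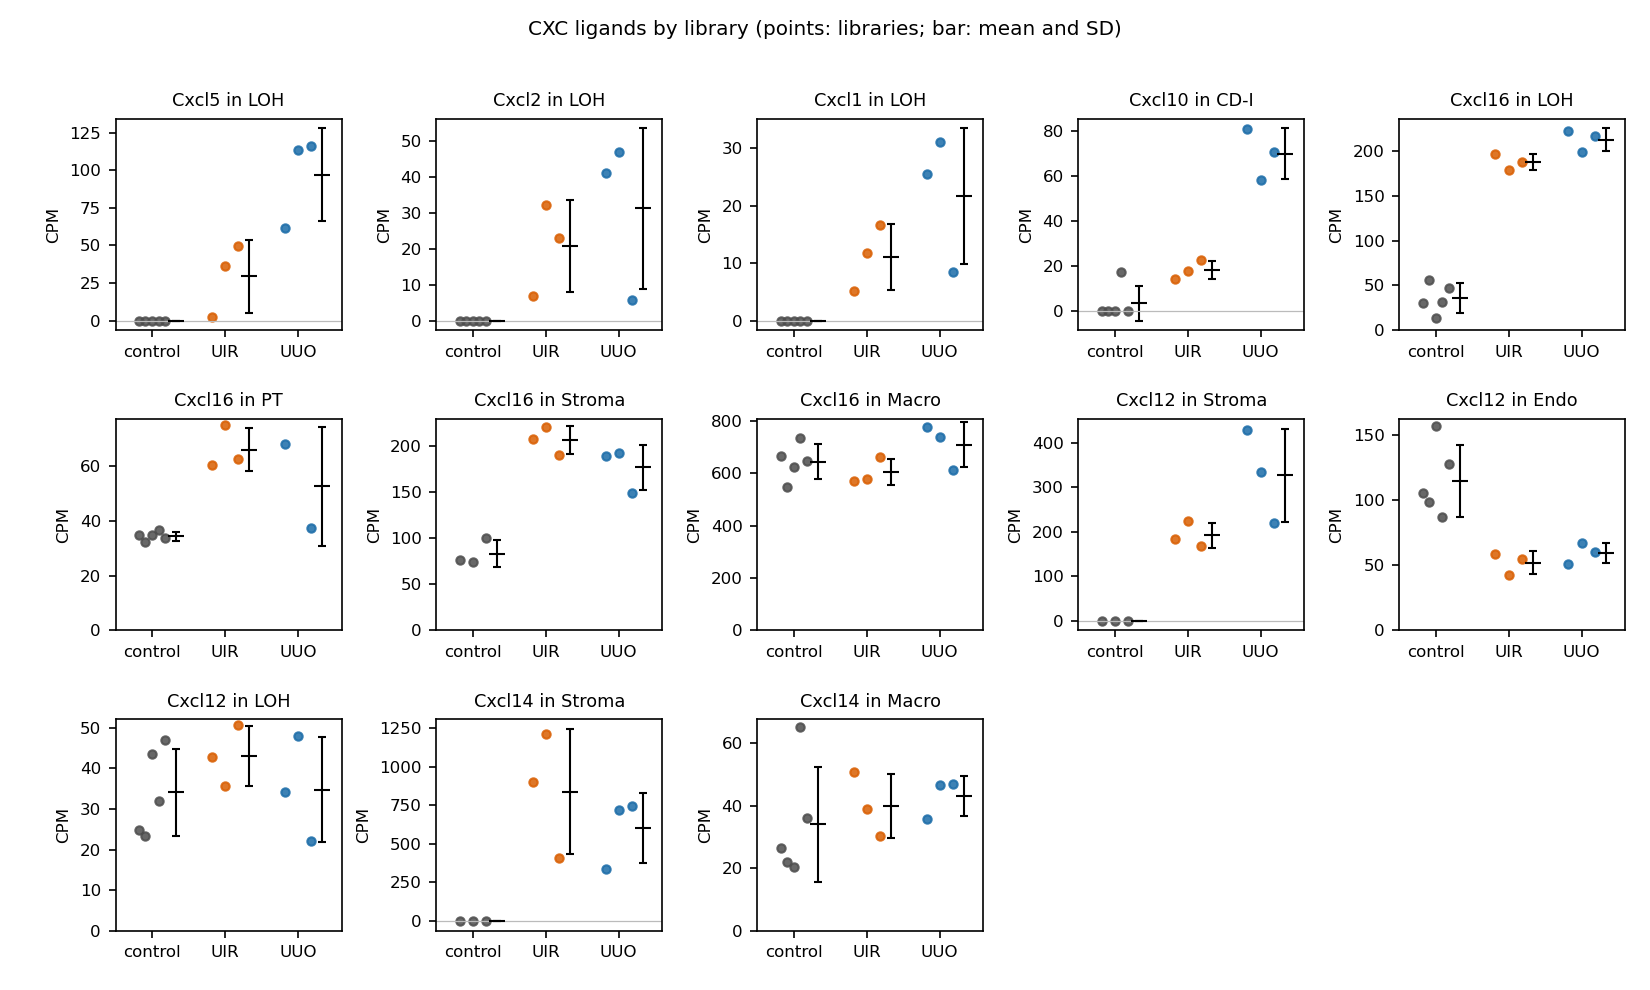
Level of each ligand in CPM by library (points) with the group mean and SD (bars) in control, UIR and UUO, in selected classes. The LOH panels show all 5 controls at 0 for Cxcl1, Cxcl2 and Cxcl5, and the endothelial panel of Cxcl12 shows every control above every injured library.

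Cxcl10, the interferon-induced ligand of Cxcr3, rose in intercalated cells of both models, in endothelium of UUO and in podocytes of UIR, and showed no called difference in LOH, macrophages or T/NK cells. In intercalated cells it was at 0, 17.4, 0, 0 and 0 CPM in Ctrl, N1, N2, AN1 and AN2, at 14.4, 17.6 and 22.7 CPM in UIR, UIR1 and UIR2 and at 81, 58.3 and 70.6 CPM in UUO, UUO1 and UUO2. The 3 UUO libraries lay above all others, and N1 overlapped with UIR. The differences were 2.31 for UIR (SE 0.62, adjusted p = 0.0122), 4.17 for UUO (SE 0.52, adjusted p = 1.49e-06) and 1.87 between UUO and UIR (SE 0.34, adjusted p = 0.00312). The UIR call was lost without Ctrl and with free RNA subtracted (adjusted p = 0.27), and the UUO call held with it subtracted.

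In endothelium Cxcl10 was at 0, 1.48, 1.77, 0 and 0 CPM in Ctrl, N1, N2, AN1 and AN2, at 0.351, 22 and 21.8 CPM in UIR libraries and at 38.3, 6.99 and 61.1 CPM in UUO libraries. All UUO libraries exceeded the controls, by 5.83 (SE 1.35, adjusted p = 0.00727), and UIR overlapped with control and was not called (4.61, SE 1.61, adjusted p = 0.203). With free RNA subtracted the adjusted p for UUO was 0.053. The pooled level in UUO was 137 CPM in the endothelial cluster led by Selp and Plvap, the adhesion molecule and the fenestral diaphragm protein, and 27.5 CPM without UUO2, which stood there at 484 CPM. Cxcl10 in podocytes was at 0 in the 5 controls, at 269, 30.7 and 17 CPM in UIR libraries and at 0, 25.6 and 12.8 CPM in UUO libraries. It was at least 43.6-fold higher in UIR than in control (adjusted p = 0.00106), and the UIR library stood far above the other 2, which lay near the 17.6 to 24.6 CPM of Cxcl10 in droplets without cells of UIR.

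Single libraries carried much of Cxcl10 elsewhere. In stroma it was at 18.5, 62.6 and 7.6 CPM in N1, N2 and AN1, at 7.65, 232 and 9.42 CPM in UIR, UIR1 and UIR2 and at 4.25, 6.03 and 2.96 CPM in UUO, UUO1 and UUO2. The UUO libraries were the lowest of these pools, and UIR1 set the height of the UIR mean. The difference between UUO and UIR was -4.32 (SE 0.97, adjusted p = 0.0196), and without UIR1 it was -0.96 (adjusted p = 0.62). Without N1 or UUO the call was lost too. In macrophages Cxcl10 ranged from 4.07 to 417 CPM in control, from 20.8 to 144 CPM in UIR and from 58.2 to 191 CPM in UUO, and in LOH from 0 to 245, 34.6 to 67.3 and 24.9 to 58.7 CPM. The classes with the highest means, Ankrd1/Tnc, mDC, macrophages and Ubd/Ptgds, did not differ from their neighbours in that order past the threshold (adjusted p between 0.370 and 0.912). Among T/NK cells a cluster led by the interferon-induced genes Ifit3 and Isg15 held pooled levels of 290 CPM in UIR and 931 CPM in UUO.

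Cxcl12, the ligand of Cxcr4, rose in stroma and fell in endothelium in both models. In stroma it was at 0 in N1, N2, AN1 and AN2 and at 116 CPM in Ctrl (11 UMIs in 17 cells), at 184, 224 and 168 CPM in UIR, UIR1 and UIR2 and at 429, 334 and 219 CPM in UUO, UUO1 and UUO2. Every injured library lay above every control, and UUO2 lay within the UIR range. Against the pools of N1, N2 and AN1 alone, Cxcl12 was at least 25.8-fold higher in UIR (adjusted p = 1.65e-06) and at least 45.2-fold higher in UUO (adjusted p = 2.31e-07). With Ctrl and AN2 added the log2 differences were 3.40 (SE 0.56, adjusted p = 8.08e-05) and 4.13 (SE 0.53, adjusted p = 3.81e-06). In the main pools the models differed by 0.72 (SE 0.21, adjusted p = 0.099).

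The stromal values followed the subtypes. In the Fibro 3 cluster led by Sfrp2, Ptn and Itga8, which held 88 control, 56 UIR and 159 UUO cells, the pooled Cxcl12 level was 0, 3.73 and 4.26 CPM, from 0, 1 and 3 UMIs. In the Fibro 1 cluster led by Wnt4 and Igfbp2 it was 579 CPM in UIR and 575 CPM in UUO, with no control cell. In the Fibro 1 cluster led by Fbn2 and Sema3d it was 136 CPM in UIR and 505 CPM in UUO.

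In endothelium Cxcl12 stood at 157, 87.2, 128, 105 and 98.3 CPM in Ctrl, N1, N2, AN1 and AN2, at 59, 42.3 and 54.9 CPM in UIR libraries and at 51.3, 67.1 and 59.9 CPM in UUO libraries. The lowest control lay above the highest injured library. The differences were -1.19 in UIR (SE 0.17, adjusted p = 0.000761) and -1.05 in UUO (SE 0.16, adjusted p = 0.000296). The endothelial markers summed to 8555 to 11339 CPM in control, 9586 to 10414 CPM in UIR and 10301 to 11127 CPM in UUO. Within the endothelium the pooled level was 350 CPM in control, 116 CPM in UIR and 191 CPM in UUO in the cluster led by Tspan8, Thbs2 and Fxyd6. It was 232, 111 and 205 CPM in the arterial cluster led by Stmn2 and Mgp, and 320, 247 and 449 CPM in the cluster led by Aqp1 and Slc14a1, the water and urea channels of the vasa recta, where the control level was 129 CPM without Ctrl and 537 CPM without AN2. These 3 clusters held 101, 43 and 28 of the control cells, and the part of a changed mix of endothelial cells in the fall was not tested.

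Elsewhere Cxcl12 differed less between groups. In LOH it was between 22.2 and 50.7 CPM and in PT between 8.26 and 17 CPM over all libraries, with no call. In podocytes it stood at 104, 183, 58.9, 70.5 and 72.5 CPM in Ctrl, N1, N2, AN1 and AN2 and at 245, 151 and 163 CPM in UIR libraries, a difference of 0.89 (SE 0.25, adjusted p = 0.0732). Over the libraries of all groups the order of classes was stroma (173 ± 153 CPM, SD, n = 9), podocytes (122 ± 68.7, n = 11), endothelium (82.7 ± 36, n = 11) and LOH (36.7 ± 10.4, n = 11), and each differed from the next (adjusted p = 0.000912, 0.000377 and 1.5e-05). The order was not that of each group. In control endothelium averaged 115 CPM, podocytes 97.8 CPM and stroma 0, in UIR stroma and podocytes averaged 192 and 186 CPM, and in UUO stroma averaged 327 CPM and podocytes 99.9 CPM. Over all kept cells Cxcl12 was 18.4 ± 3.01 CPM in control (SD, n = 5) and 39.6 ± 12.8 CPM in UUO (SD, n = 3), a difference of 0.65 (SE 0.17, adjusted p = 0.00357). With PT cells left out it was 0.25 (adjusted p = 0.29).

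Cxcl14, a chemokine of epithelia and fibroblasts, was mainly stromal in the injured kidneys. In stroma it was at 0 in N1, N2 and AN1, at 26.9 CPM in AN2 (1 UMI in 8 cells) and at 423 CPM in Ctrl (40 UMIs in 17 cells, 39 of them in 1 cell), at 897, 1212 and 406 CPM in UIR, UIR1 and UIR2 and at 339, 720.4 and 746 CPM in UUO, UUO1 and UUO2. All injured libraries lay above the pools of N1, N2 and AN1, whereas UIR2 and UUO lay just below Ctrl, and the models overlapped (log2 difference -0.53, SE 0.32, adjusted p = 0.645). Against those 3 pools it was at least 112-fold higher in UIR (adjusted p = 9.57e-07) and at least 76-fold higher in UUO (adjusted p = 3.15e-06). With Ctrl and AN2 added the log2 differences were 3.59 (SE 0.65, adjusted p = 0.000245) and 3.08 (SE 0.66, adjusted p = 0.00136). The Fibro 3 cluster held no Cxcl14 UMI in any group. The Wnt4/Igfbp2 cluster of Fibro 1 held a pooled level of 2664 CPM in UIR and 1124 CPM in UUO. Another Fibro 1 cluster stood at 4319 CPM in control (39 UMIs in 1 cell), 709 CPM in UIR and 720 CPM in UUO. A further one stood at 541 CPM in control (1 UMI in 3 cells), 438 CPM in UIR and 654 CPM in UUO. The last had 1 control cell, at 0, and stood at 148 CPM in UUO. Control cells of Fibro 1 were thus too few for a comparison within that type.

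Macrophages carried Cxcl14 at 20.2, 65.1, 35.9, 26.5 and 22.1 CPM in Ctrl, N1, N2, AN1 and AN2, 50.7, 38.9 and 30.2 CPM in UIR libraries and 35.8, 46.7 and 47 CPM in UUO libraries. The groups overlapped, with log2 differences of 0.22 (SE 0.30, adjusted p = 0.769) and 0.30 (SE 0.30, adjusted p = 0.612) from control. LOH levels were low, at 0 in all controls and 1.92 to 8.4 CPM in UUO, where Cxcl14 was at least 2.45-fold higher (adjusted p = 0.0371). That call was lost without any 1 of the controls, and the level lay below the 21.6 to 30.3 CPM of Cxcl14 in droplets without cells of UUO. Stroma at 480 ± 441 CPM (SD, n = 9) stood above macrophages at 38.1 ± 13.5 CPM (SD, n = 11) by 3.39 (SE 0.20, adjusted p = 8.7e-35) in a fit over all groups with the library as a block. In the control pools the order was the other way, with stroma at 0 and macrophages at 34 CPM on average.

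Cxcl16, the transmembrane ligand of Cxcr6, had the most calls of the 10 members, all of them higher in pools of at least 20 cells. In LOH it stood at 13.9, 31.9, 47, 30.3 and 56.1 CPM in Ctrl, N1, N2, AN1 and AN2, at 197, 179 and 187 CPM in UIR, UIR1 and UIR2 and at 223, 198 and 217 CPM in UUO, UUO1 and UUO2. Each injured library exceeded every control by a wide margin. The differences were 2.21 in UIR (SE 0.22, adjusted p = 3.72e-08) and 2.38 in UUO (SE 0.22, adjusted p = 6.4e-09).

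In intercalated cells Cxcl16 stood at 12.6, 26, 3.05, 32.3 and 14.5 CPM in the controls in the same order, at 98.1, 118 and 121 CPM in UIR libraries and at 177, 175 and 174 CPM in UUO libraries. The groups did not overlap, and the UUO libraries lay within a few CPM of each other. The differences from control were 2.41 (SE 0.24, adjusted p = 1.7e-07) and 2.97 (SE 0.24, adjusted p = 1.72e-09), and that between the models was 0.56 (SE 0.18, adjusted p = 0.132). In the stroma it was at 73.8, 100.1 and 76 CPM in N1, N2 and AN1, 208, 221 and 191 CPM in UIR libraries and 189, 193 and 149 CPM in UUO libraries, again without overlap (1.45, SE 0.24, adjusted p = 0.00018, and 1.18, SE 0.24, adjusted p = 0.00152). Ctrl stroma, outside these pools, held 233 CPM (22 UMIs) and AN2 stroma 26.9 CPM, and with both added the differences were 1.16 (SE 0.27, adjusted p = 0.00321) and 0.90 (SE 0.28, adjusted p = 0.0218).

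In PT cells Cxcl16 was at 34.7, 36.6, 33.6, 34.8 and 32.2 CPM in the controls and at 60.3, 74.9 and 62.5 CPM in UIR libraries. The controls were close together and all UIR libraries lay above them (0.98, SE 0.11, adjusted p = 1e-05). At a mitochondrial limit of 15% the difference was 0.57 (adjusted p = 0.0778). UUO had PT pools in UUO1 (67.8 CPM) and UUO2 (37.2 CPM) alone and was not called (0.40, SE 0.29, adjusted p = 0.628). In failed repair tubular cells Cxcl16 was at 97.2 and 70.2 CPM in Ctrl and AN2, 154, 108 and 128 CPM in UIR libraries and 199.9 and 178 CPM in UUO and UUO1. The UUO difference of 1.15 (SE 0.29, adjusted p = 0.0181) was lost without AN2 or UUO, and Vcam1, a marker of this class, was at 0 in both control pools. In principal cells the difference between UIR and control was 0.02 (SE 0.19), and UUO had 1 pool, UUO1 at 319 CPM, above all 5 controls (63.8 to 107 CPM). The 6 markers of principal cells summed to 2969 CPM in that pool, 13242 to 15116 CPM in UIR and 18006 to 26880 CPM in control, and the part of this shift in the level was not tested. With UUO added (241.6 CPM in 14 cells) the difference from control was 1.73 (SE 0.20, adjusted p = 3.3e-07).

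Macrophages carried a high level of Cxcl16 with no called difference. It stood at 623, 733, 646, 666 and 549 CPM in Ctrl, N1, N2, AN1 and AN2, at 572, 579.5 and 662 CPM in UIR libraries and at 777, 737 and 612 CPM in UUO libraries. All 3 groups overlapped, with differences of -0.09 (SE 0.14, adjusted p = 0.812) and 0.07 (SE 0.14, adjusted p = 0.85). After each cell was thinned to 1000 UMIs, 46.6% of control, 44.4% of UIR and 45.2% of UUO macrophages held a Cxcl16 UMI, against 68%, 52.3% and 54.8% unthinned. In T/NK cells, which should lack it, the thinned shares were 0%, 1.42% and 0.736%. Median depths were 3286, 1164 and 1156 UMIs in macrophages and 4220, 3675 and 4556.5 UMIs in T/NK cells.

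By class, mature dendritic cells (876 ± 170 CPM, SD, n = 3) and macrophages (651 ± 73.8 CPM, SD, n = 11) led for Cxcl16 and did not differ past the threshold (adjusted p = 0.468). Macrophages stood above Ubd/Ptgds by 1.77 (SE 0.25, adjusted p = 3.7e-10). Droplets without cells held Cxcl16 at 12.8 to 39.1 CPM in control, 79 to 109.8 CPM in UIR and 168 to 209.5 CPM in UUO, so free RNA rose with the groups. With it subtracted, the calls in LOH, CD-I, PT and stroma held and that in failed repair cells did not (adjusted p = 0.075). The UUO levels of LOH, CD-I, stroma and failed repair cells overlapped the range of UUO droplets. The UIR levels of PT cells lay below the range of UIR droplets. Endothelium, in the same libraries, showed 14 to 38.6 CPM and no call, which is no test of free RNA in the other classes.

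Cxcr2, the receptor of the neutrophil-drawing ligands, was almost confined to neutrophils in the pools tested. UUO neutrophils held 1160.0, 1451 and 1003 CPM in UUO, UUO1 and UUO2, and every other class had a mean of at most 3 CPM. The difference to the next class, B cells, was 8.43 (SE 0.48, adjusted p = 3.4e-33). At 1000 UMIs per cell 54.9% of UUO neutrophils held a Cxcr2 UMI (70.8% unthinned, median depth 2725 UMIs), against 0.134% of UUO T/NK cells (0.195% unthinned, median 4556.5 UMIs). No class could be compared between groups. Over all kept cells Cxcr2 stood at 0.313, 0.182, 0.165, 0.36 and 0.132 CPM in Ctrl, N1, N2, AN1 and AN2, at 0.344, 0.724 and 0.321 CPM in UIR libraries and at 7.4, 12.1 and 18.5 CPM in UUO libraries. UUO was set apart, by 5.26 from control (SE 0.41, adjusted p = 1.33e-07) and by 4.64 from UIR (SE 0.40, adjusted p = 8.38e-06). The number of neutrophils moved with it, at 66, 95 and 134 cells in UUO, UUO1 and UUO2 and at most 10 in any other library.

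Cxcr4, the receptor of Cxcl12, was broad among leukocytes and rose in endothelium in UUO. In endothelium it stood at 23.8, 1.48, 12.4, 1.44 and 4.68 CPM in Ctrl, N1, N2, AN1 and AN2, at 30.9, 4.7 and 8.57 CPM in UIR, UIR1 and UIR2 and at 56, 50.8 and 60.2 CPM in UUO, UUO1 and UUO2. The UUO libraries were close together and above all others, while Ctrl and UIR were the highest of their groups. UUO exceeded control by 2.34 (SE 0.50, adjusted p = 0.00392) and UIR by 1.84 (SE 0.43, adjusted p = 0.0262), and UIR and control differed by 0.50 (SE 0.59, adjusted p = 0.843). The call between the models was lost without UIR1, UIR2, UUO1 or UUO2, with DESeq2 (adjusted p = 0.51) and with free RNA subtracted (adjusted p = 0.16).

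In UIR and UUO most endothelial Cxcr4 lay in a Plat cluster and an Apln cluster, both of the glomerular type by markers. The Plat cluster, led by Plat, Gja5 and Esm1, had pooled levels of 31.6 CPM in control, 122 CPM in UIR and 181 CPM in UUO. The other, led by Apln, the apelin gene of tip cells, had 42.4 CPM in UIR and 68.8 CPM in UUO. Those clusters held 10 and 2 control cells, 111 and 36 UIR cells, and 311 and 306 UUO cells. In the Plat cluster the level was 48.3 CPM in UIR without the UIR library. It was 0 in control without Ctrl, which held all 3 control UMIs of that cluster, against 41 in all control endothelium. The number of cells thus moved with the level, and its part in the difference was not tested.

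In macrophages Cxcr4 stood at 85, 4.07, 23.9, 8.83 and 50.5 CPM in the controls, 56.6, 52.1 and 51.7 CPM in UIR libraries and 87, 57.2 and 49.7 CPM in UUO libraries, all overlapping and not called. UUO neutrophils were highest at 577, 475 and 277 CPM, above monocytes at 121, 151 and 55.6 CPM by 1.85 (SE 0.29, adjusted p = 7.2e-08). Monocytes, B cells (123, 124 and 70.8 CPM in UUO libraries) and macrophages were not separated from each other, and macrophages stood above T/NK cells by 0.92 (SE 0.18, adjusted p = 4.6e-06). Summed over all cells, Cxcr4 was 2.14 ± 2.25 CPM in control (SD, n = 5), 10.6 ± 1.89 CPM in UIR and 31.6 ± 1.75 CPM in UUO (SD, n = 3 each). The step from UIR to UUO, 1.49 (SE 0.43, adjusted p = 0.0239), was lost without UIR, UIR1, UUO, UUO1 or UUO2.

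Cxcr6, the receptor of Cxcl16, marked T and NK cells. It stood at 745, 946, 896 and 592 CPM in T/NK cells of Ctrl, N1, AN1 and AN2, at 569, 470.3 and 546 CPM in UIR, UIR1 and UIR2 and at 501, 577 and 624 CPM in UUO, UUO1 and UUO2. The lowest control lay above the UIR libraries and within the UUO range, and neither difference was called (-0.51, SE 0.17, adjusted p = 0.303; -0.46, SE 0.17, adjusted p = 0.206). The control pools held 20 to 26 T/NK cells each. At 1000 UMIs per cell, 49.5%, 36% and 38.2% of control, UIR and UUO T/NK cells held a Cxcr6 UMI (74.8%, 61.6% and 64% unthinned), against 0.0189%, 0.479% and 0% of PT cells, whose median depths were 5420, 3783 and 2534 UMIs. T/NK cells averaged 647 ± 163 CPM (SD, n = 10) and stood above the next class by 6.49 (SE 0.39, adjusted p = 4.9e-32).

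Within T/NK cells Cxcr6 was uneven. Pooled levels were 753 CPM in UIR and 925 CPM in UUO in a cluster with Cd8a, 1009.7 and 1082 CPM in a cluster with Pdcd1 and Cd8a, and 1172 and 1135 CPM in a cluster led by Trdc, the gamma-delta receptor chain. The cluster with Foxp3 and Ctla4, genes of regulatory T cells, held 55.2 and 67.9 CPM. Over all kept cells Cxcr6 rose from 5.99 ± 3.01 CPM in control (SD, n = 5) to 37.9 ± 12.1 CPM in UIR and 51.8 ± 7.17 CPM in UUO (SD, n = 3 each), with 14 to 26 T/NK cells in a control library and 389 to 849 in an injured one.

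**Figure D3:**
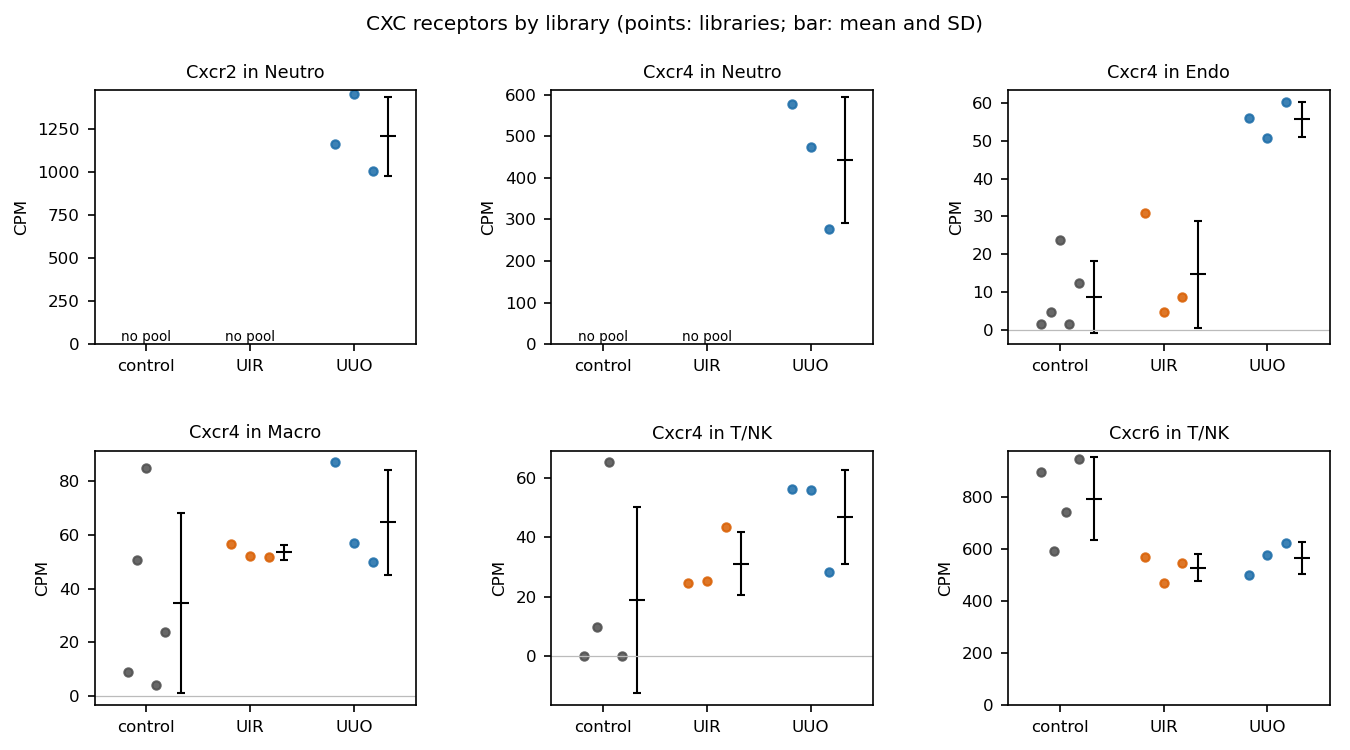
Level of Cxcr2, Cxcr4 and Cxcr6 in CPM by library (points) with the group mean and SD (bars) in the classes that carry them, with "no pool" where a group had no library with 20 cells of the class. Cxcr6 in T/NK cells overlaps between control and UUO, whereas endothelial Cxcr4 is higher in the 3 UUO libraries than in the other 8.

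The share of a member's UMIs that each class gave was read in every library. For Cxcl12, stroma gave 0.490% of the UMIs in control (mean of 5 libraries), where all stromal UMIs came from Ctrl. It gave 29.5 ± 6.89% in UIR and 54.9 ± 13.6% in UUO (SD, n = 3 each). For Cxcl16, macrophages gave 24.4 ± 4.32% in control, 34 ± 8.98% in UIR and 51.3 ± 10.7% in UUO. T/NK cells gave 87.6 ± 7.05%, 93.8 ± 2.9% and 96.2 ± 1.12% of the Cxcr6 UMIs. Of 28 exact two-sided permutation tests over libraries of such shares, 0 passed after adjustment (smallest adjusted p = 0.167), where 5 against 3 libraries allow a p of 0.0357 at the least and 3 against 3 allow 0.1.

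**Figure D4:**
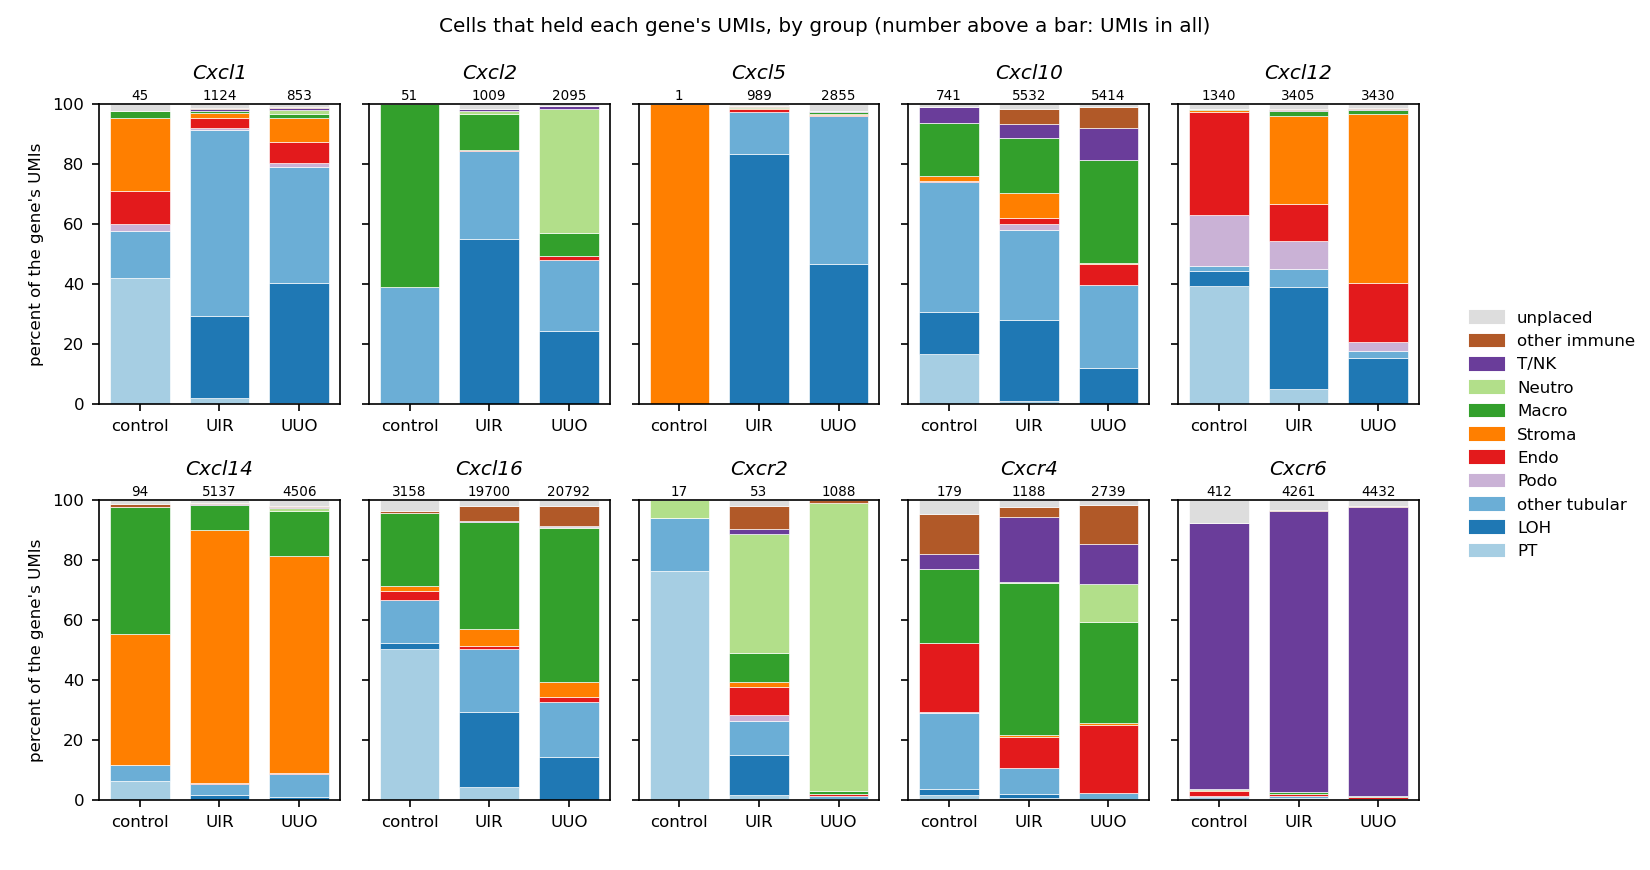
Share of each member's UMIs by cell class (percent of the UMIs summed over a group's libraries, their number above each bar) in control, UIR and UUO. "Other tubular" includes the tubular clusters without a class name, "unplaced" are cells in no class, and the Cxcl5 control bar rests on 1 UMI. Stroma is the largest piece of Cxcl12 in UUO, and T/NK cells take most of Cxcr6 in every group.

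Likeness to a member was read as Pearson's r of log2(CPM + 1) over the 22 class means, among 13398 genes with at least 10 CPM in a class. These values describe class means that share libraries and carry no test. Cxcl2 was most like Gm13822 (r = 0.87), 2900093K20Rik (0.86) and Cxcl3 (0.81), a neighbouring ligand of Cxcr2, and Cxcl5 was most like Cxcl17 (0.89), Tmprss4 (0.87) and Il1f6 (0.87). Cxcl1 was most like Carhsp1 (0.84), Txndc9 (0.82) and Ptpn23 (0.81), Cxcl10 like the guanylate-binding protein gene Gbp2 (0.79), Pdlim4 (0.79) and Rfc5 (0.78), and Cxcl12 like Tmem47 (0.88), Slco2a1 (0.88) and Crtap (0.87). Cxcl14 was most like Tcap (0.85), Cxcl13 (0.83) and P2rx1 (0.81), and Cxcl16 like Rnf180 (0.87), Nt5c2 (0.78) and Pld2 (0.77). Cxcr4 was most like Adrbk1 (0.88), Rap2c (0.87) and Cd274 (0.85), the gene of PD-L1. The receptors with 1 leading class had the highest values, 0.98 each for 9830107B12Rik, Gm5416 and Mrgpra2b with Cxcr2, and 0.95, 0.94 and 0.94 for the T cell genes Pdcd1, Ctla4 and Cd3g with Cxcr6.

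Other genes of the pathway were read from a list of 41 genes, of which 34 were tested in at least 1 class. They comprise other CXC ligands, other CXC and atypical receptors, proteases that shed or cut the ligands, parts of receptor signalling, and glycan partners. In classes, 42 of 208 pairs were higher and 11 lower in UIR than in control, 37 and 10 of 179 in UUO, and 6 and 3 of 260 between UUO and UIR. The tests were the same as for the members, and over all genes 5.57% of tests were higher and 4.28% lower in UIR, 6.97% and 6.14% in UUO, and 0.649% and 0.927% between UUO and UIR.

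Among ligands and receptors, Cxcl13, which draws B cells, fell in stroma from 187 ± 158 CPM in control to 19.6 ± 15.2 CPM in UIR (-3.15, SE 0.58, adjusted p = 0.0006) and 7.47 ± 2.87 CPM in UUO (-4.57, SE 0.64, adjusted p = 3.8e-05). Cxcl9, a further Cxcr3 ligand, was at 0 in control stroma and at 53.7 ± 12.2 CPM in UIR, at least 7.05-fold higher (adjusted p = 0.023), and was lower in UUO at 11.5 ± 14.7 CPM (-2.11, SE 0.47, adjusted p = 0.023). Ackr3, the scavenger receptor of Cxcl12, rose in endothelium of UUO to 25.4 ± 3.07 CPM from 6.98 ± 2.38 CPM in control (1.76, SE 0.27, adjusted p = 0.00023) and 8.2 ± 2.56 CPM in UIR (1.57, SE 0.23, adjusted p = 0.00084). In intercalated cells Ackr3 fell from 15 ± 9.68 CPM to 0 in UUO, at least 16.6-fold lower (adjusted p = 5e-05). SDs here are over 5 control libraries (3 in stroma) and 3 of each model.

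Among proteases and partners, Adam10, the sheddase of Cxcl16, rose in LOH from 29.5 ± 8.02 CPM to 71 ± 2.31 CPM in UIR (0.99, SE 0.18, adjusted p = 0.00014) and 88 ± 1.64 CPM in UUO (1.29, SE 0.18, adjusted p = 3.2e-06), and was also called higher in CD-I and stroma in both models. Dpp4, which clips Cxcl10 and Cxcl12, rose in LOH from 1.42 ± 1.35 CPM to 24 ± 2.91 CPM in UIR (3.74, SE 0.49) and 22.7 ± 2.53 CPM in UUO (3.66, SE 0.50). Sdc1, a heparan sulfate proteoglycan, rose in LOH from 21.3 ± 10.3 CPM to 164 ± 18.5 and 182 ± 13.4 CPM (2.72, SE 0.22, and 2.86, SE 0.22). Rgs1, a brake on chemokine receptor signalling, rose in macrophages from 10.6 ± 7.09 CPM to 65.9 ± 17.4 CPM in UIR (2.51, SE 0.35, adjusted p = 7e-05) and 49.5 ± 3.54 CPM in UUO (2.01, SE 0.36, adjusted p = 0.00078).

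**Figure D5:**
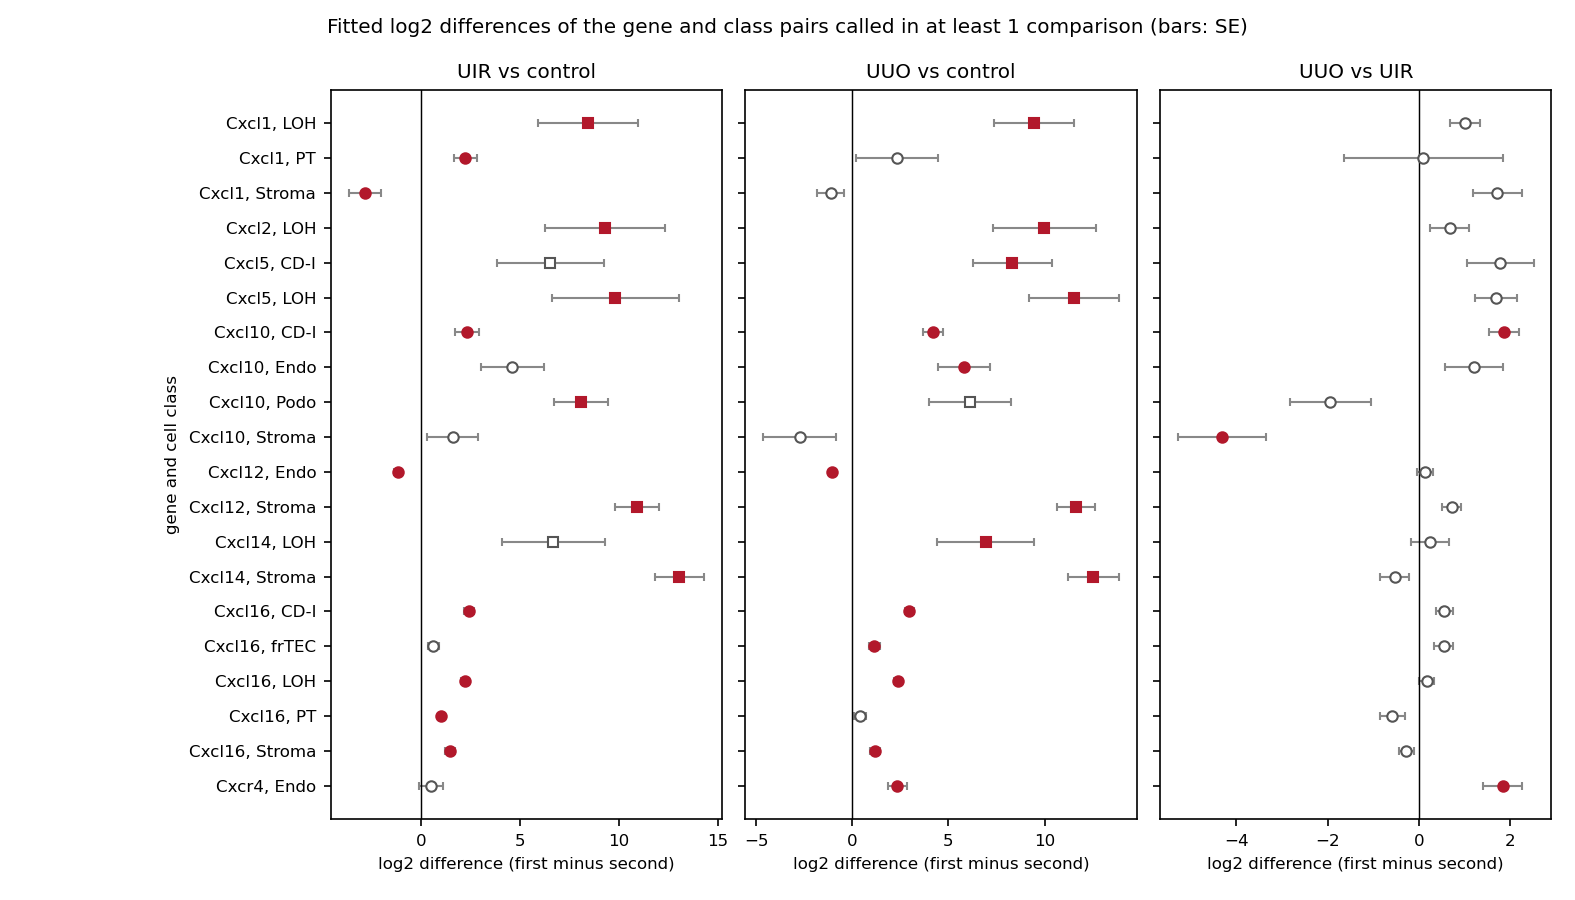
Log2 difference with its standard error for each pair of a member and a class called in at least 1 of the 3 comparisons, 1 panel a comparison, for the classes shown. Filled red marks were called and open marks were not, and squares mark a comparison with a group at 0, whose fitted value is no bound. Cxcl16 lies above 0 in every class where it was called and Cxcl12 in endothelium lies below 0 in both models.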

How the data were processed

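Kidney cells were dissociated with a cold active protease and profiled with 10x Genomics 3' v3 chemistry. The deposited files hold raw counts of UMIs for every barcode, made by the authors with Cell Ranger on GRCm38 (the matrix headers name version 3.1.0), and the ambient RNA removal of the study is not in these counts. Barcodes were called as cells by their UMI number, or from 500 UMIs by a profile unlike the droplets of rank 45000 to 90000 (p under 0.01 in 10000 simulations). Cells over 30% mitochondrial or 5% haemoglobin UMIs or under 200 genes were left out, as were 3284 doublets at the study's expected rate of 7.5%. The kept cells were clustered on 2000 variable genes, 40 components and 20 neighbours (Leiden resolution 1, leidenalg 0.10.2, Python 3.11.15), without members, pathway genes or markers, and clusters were named from fixed marker lists. The naming thresholds were set after the cluster tables had been seen.

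Counts were summed per library and class and tested in 1 fit of the 3 groups per class (edgeR 4.0.16, TMM, filterByExpr, R 4.3.3) where at least 2 libraries of each compared group had 20 cells. Replicate libraries came from separate mice per the study's methods. Class orders were tested with the library as a block. On simulated pools edgeR recovered 87 of 100 genes changed 2-fold in LOH and 32 of 100 in stroma, and 100 and 79 of 100 changed 4-fold. Shares of UMIs were compared with exact permutation tests, and shares of cells were read after each cell was thinned to 1000 UMIs, with shallower cells left out. Depth limits low levels, where a floor of 3 UMIs was used for a group at 0, and floors cover counting error only.

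Named are the 10 members, pathway genes past the threshold in a class, of which examples are given, and for each member the 3 genes most like it over class means. Members and lists were chosen with earlier results of these data known. Alternatives were RLE size factors, DESeq2 1.42.0, no filter on low counts, other limits on mitochondrial share, UMIs, pool size and resolution, subtraction of free RNA, each library left out, control sets alone and a replicate block. Promoters were those of RefSeq on GRCm38. Results of 1 tubular cluster, among them 4 of the 7 calls between UUO and UIR, enter the counts of calls and are not reported here.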

Additional observations from a re-analysis of the deposited data

Results flagged for a closer look

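Single control libraries stood apart from the other 4 in 7 of 28 groups of control values that held at least 20 UMIs, where chance flags about 1 in 20 groups of independent, normally distributed values. These are skewed counts and some groups share cells, so the number of groups is not to be read against that rate. Cxcl2 in macrophages was at 91.5 CPM in AN2 (29 UMIs in 85 cells) and at 0 to 4.41 CPM in the others, and over all kept cells of AN2 it was at 3.17 CPM, against 0 to 0.104 CPM. Cxcl10 in LOH was at 245 CPM in AN1 (89 UMIs in 51 cells, 0 to 22.8 CPM in the others) and Cxcl10 in macrophages at 417 CPM in Ctrl (103 UMIs in 64 cells, 4.07 to 50.5 CPM). Cxcr4 in intercalated cells was at 28.9 CPM in Ctrl, against 3.22 to 8.08 CPM, and over all kept cells of Ctrl at 6.06 CPM, against 0.721 to 2.05 CPM. Cxcl1 over all kept cells was at 1.73 CPM in N2, against 0.216 to 0.47 CPM. The source of these values was not tested.

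UUO and UIR differed from each other in 6 results by the test of that difference itself. In log2 values of UUO minus UIR, these were Cxcl10 in intercalated cells (1.87, adjusted p = 0.00312) and in stroma (-4.32, adjusted p = 0.0196), Cxcr4 in endothelium (1.84, adjusted p = 0.0262), and over all kept cells Cxcl5 (1.85, adjusted p = 0.0241), Cxcr2 (4.64, adjusted p = 8.38e-06) and Cxcr4 (1.49, adjusted p = 0.0239). Every UUO library lay above every UIR library for Cxcl10 in intercalated cells, Cxcr4 in endothelium and Cxcl5, Cxcr2 and Cxcr4 over all cells. With DESeq2 in place of edgeR, Cxcr2 alone of these results kept its call.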

How the results depend on the processing

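None of the 57 called results changed sign under an alternative that gave it a value, and 31 kept their call under each of these. Calls lost numbered 8 with DESeq2, 12 with the AN controls alone, 11 with the N controls alone, 14 with Ctrl alone, 12 at a mitochondrial limit of 15%, 5 with free RNA subtracted, 3 in pools of at least 50 cells, 3 with PT cells left out, 1 at Leiden resolution 2 and 2 with UIR and UUO libraries alone, and 14 results lost theirs without 1 library or another. RLE size factors, at least 1000 UMIs per cell, no filter and pools of at least 5 cells lost none of those they tested. In cell classes the number of calls was 14 of 43 tests for UIR against control, 15 of 41 for UUO against control and 7 of 54 for UUO against UIR. Without the filter on low counts it was 26, 27 and 21, by construction over more tests. At a mitochondrial limit of 15% it was 4 and 4 for the comparisons with control, where fewer pools left 21 and 19 tests. With the N controls alone it was 8 and 8, and with Ctrl alone 7 and 5. Ctrl is 1 library and was assumed to vary like the injured ones, so its count is no test of the controls' own spread. With DESeq2 the count for UUO against UIR was 4. Leaving out 1 library at a time gave 10 to 16, 13 to 17 and 5 to 10 calls in classes, and over all kept cells 8 to 9, 10 to 10 and 1 to 4 calls, where 8, 10 and 3 were called with all libraries. The lowest count, 1, came without UUO1 and without UUO2.

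The title numbers of UIR and UUO libraries were checked as a pairing. Over all kept cells the same-numbered libraries deviated from their group means with correlations of 0.40, 0.07 and 0.13, and UIR1 correlated best with UUO2 (0.27), so the numbers were not taken to pair the samples. By class the lowest same-numbered correlation was 0.24 in LOH, 0.15 in T/NK cells, 0.09 in endothelium and -0.16 in macrophages, and in each of these UIR2 correlated best with UUO1, so the check differed between pools. The UIR and UUO libraries without a number correlated with each other at 0.38 to 0.63 in every pool checked. With the numbered libraries of the other model each correlated negatively, at -0.52 to -0.07. The source of this likeness was not tested. With the number as a replicate block UUO against UIR gave 12 calls in classes (of 47 tests) and 5 over all kept cells. Calls gained with the block included Cxcl5 in LOH (1.95, adjusted p = 0.00497) and intercalated cells (1.84, adjusted p = 0.000544), Cxcl16 in intercalated cells (0.56, adjusted p = 0.0126) and Cxcl10 in T/NK cells (1.09, adjusted p = 0.00114), and over all kept cells Cxcl16 (0.36, adjusted p = 0.026) and Cxcr6 (0.40, adjusted p = 0.0419), all higher in UUO by edgeR's quasi-likelihood test. An alternative chosen after seeing the data, UIR and UUO libraries alone without the block, gave 7 calls in classes and 2 over all kept cells. With pools of at least 5 cells, also chosen after seeing the data, the counts were 16 of 46, 18 of 46 and 8 of 61. Calls gained were Cxcl16 in principal cells of UUO against control and UIR, Cxcl16 lower in Ankrd1/Tnc in both models (-1.51 and -1.22, adjusted p = 0.0133 and 0.0395, against 5 to 6 control cells a library) and Cxcl10 lower in failed repair cells in both (-2.67 and -4.79, adjusted p = 0.0386 and 0.0112).

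Unthinned, the shares of cells with a UMI moved from 5.88% to 5.63% for Cxcl1 in Ubd/Ptgds (UUO), from 15% to 22% for Cxcl2 in neutrophils, from 2.55% to 5.01% for Cxcl5 in LOH (UUO), from 10% to 20% for Cxcl10 in Ankrd1/Tnc (control), from 14.2% to 31.2% for Cxcl12 in stroma (UUO), from 21.6% to 33.2% for Cxcl14 in stroma (UIR), from 54.9% to 70.8% for Cxcr2 and 34.3% to 52.9% for Cxcr4 in neutrophils, and from 49.5% to 74.8% for Cxcr6 in control T/NK cells.

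The median log2 difference of all genes was 0.17 and 0.16 in stroma, 0.14 and 0.15 in T/NK cells and -0.13 in UUO PT, so differences there stand against that shift. Depth and cell number limit the scarce classes, with 23 to 34 cells in each control pool of stroma and 20 to 26 in each of T/NK cells, and UUO libraries held fewer UMIs than the others. Free RNA of most members was higher in droplets of injured libraries. The cause of the differences between settings was not tested.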

Other observations

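Some cells of control kidneys that were grouped as tubular carried Cxcl10 in clusters that held few control cells. The Ankrd1/Tnc cluster held 72 Cxcl10 UMIs in 5 cells of Ctrl (2034 CPM), 61 UMIs in 6 cells of N2 (908 CPM), 5 UMIs in 6 cells of N1 (107 CPM) and none in 3 cells of AN2. In the injured libraries, with 10 to 111 cells of that cluster each, Cxcl10 ranged from 14.6 to 229 CPM in UIR and from 0 to 171 CPM in UUO. In failed repair cells 57 UMIs lay in 11 cells of N1 (408 CPM) and 35 UMIs in 26 cells of AN2 (137 CPM), while Ctrl and AN1 held none. With the 2 control pools of at least 20 such cells, Ctrl and AN2, the groups overlapped and the log2 differences were -1.70 in UIR (adjusted p = 0.250) and -3.47 in UUO (adjusted p = 0.0952) by edgeR's quasi-likelihood test. In the Ubd/Ptgds cluster 68 UMIs lay in a single cell of AN2.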
